A study of Homo sapiens with 36 samples.

Results

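The 9 genes described here encode the plasminogen activators PLAU and PLAT, the urokinase receptor PLAUR, the plasminogen activator inhibitor SERPINB2, the matrix metalloproteinases (MMPs) MMP1, MMP9 and MMP14, and the tissue inhibitors of metalloproteinases TIMP1 and TIMP2. They were chosen by name from the 27852 genes with a symbol in the deposited table, and all 9 were found in it, as 57 transcripts. RNA was sequenced from 36 cultures of 4 human prostate cancer (PCa) cell lines. C4-2 and its bone-derived subline C4-2B, both descended from the LNCaP line, stand for osteoblastic PCa (BPCa). DU145, from a brain metastasis, and 22Rv1, from a xenograft, stand for osteolytic PCa (LPCa), so that each phenotype rests on 2 lines.

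Each line was grown alone (mono-culture, 3 libraries), next to MG63 cells (2 libraries), alone with 50 ng/mL RANKL (2 libraries), and next to RAW264.7 cells with that dose of RANKL (2 libraries). MG63 cells come from a human osteosarcoma and stand for osteoblasts. RAW264.7 cells are mouse monocytic cells that RANKL turns into osteoclasts. PCa cells and their partners shared medium through a filter between joined wells of the NICO-1 device, and RNA was taken from the PCa cells on day 5. RANKL was the recombinant mouse protein. The labels do not say whether libraries of a group came from separate cultures, and the methods speak of independent experiments for bar graphs in general, so each p-value measures the spread between these libraries, which may be technical.

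Urokinase (PLAU) and tissue plasminogen activator (PLAT) cut plasminogen into plasmin, a broad serine protease that breaks down fibrin and matrix proteins and can activate several pro-MMPs. PLAUR holds urokinase at the cell surface, and SERPINB2 inhibits both activators. MMP14 is a membrane-anchored MMP that cleaves collagen and activates pro-MMP2 in a complex in which TIMP2 takes part. TIMP2 in excess inhibits MMP14, whereas TIMP1 inhibits it poorly and inhibits MMP1, MMP9 and other soluble MMPs well. In bone metastasis these proteases are studied for their part in invasion and in the remodelling of bone matrix, and urokinase made by PCa cells is among the factors linked to bone formation.

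The 12 libraries of mono-culture without RANKL held 23932472 to 36719047 estimated counts each, and the other 24 libraries held 9593426 to 15418211. Depth therefore changed together with the culture in every comparison against mono-culture without RANKL, and the 2 cannot be told apart there. Nor can fewer cells that express a gene be told from less RNA per cell in such bulk libraries. The second DU145 library with MG63 cells stood apart. The chi-square per degree of freedom between the counts of the DU145 MG63 libraries was 180, against 2.98 to 7.03 for the other 23 pairs of replicates, and genes of the mitochondrial genome took 3.24% of its counts against 15.0% in its replicate and 13.6% to 14.6% in the other 7 DU145 libraries. Calls for DU145 with MG63 cells are therefore given with and without this library. The 13 mesenchymal markers, which MG63 cells could bring, summed to 5.21 to 8.24 CPM (counts per 1000000 counts of the library) in DU145 co-cultures, against 5.25 to 7.75 CPM in mono-culture, and 8 of them, COL3A1, COL6A3 and POSTN among them, had at most 3 counts in every such library. The 12 macrophage and osteoclast markers summed to 17.2 to 23.4 CPM in DU145 with RAW264.7 cells and 18 to 19.1 CPM with RANKL alone, with TYROBP, OCSTAMP and DCSTAMP at no more than 3 counts. Luminal prostate markers summed to 28.2 to 30.3 CPM in DU145 mono-cultures, whereas they summed to 936 to 1010 CPM in 22Rv1 and 6020 to 7230 CPM in C4-2 and C4-2B.

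The plasminogen activators differed in which lines expressed them. PLAU was measured at 264, 278 and 286 CPM in the 3 DU145 mono-cultures. In the other lines it did not exceed 0.973 CPM in any of the 27 libraries of any culture, and 11 of the 36 libraries had no PLAU count. The lowest DU145 mono-culture was 684 times the highest 22Rv1 mono-culture, 1290 times the highest C4-2 and 2690 times the highest C4-2B mono-culture in CPM. PLAT, the other activator, was near the detection limit in every library, with at most 34.6 counts and 1.92 CPM. DU145 held 0.965 to 1.16 CPM of PLAT in mono-culture and C4-2B held 0.138 to 0.207 CPM, and these ranges did not overlap. PLAT did not reach the 100 counts required in at least 1 library for a test.

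PLAUR, the receptor, had counts in every library, and its level set the lines in an order. DU145 mono-cultures held 51.5, 48.4 and 49.6 CPM, 22Rv1 held 11.6, 12.9 and 8.75 CPM, C4-2 held 2.86, 2.25 and 1.87 CPM, and C4-2B held 1.95, 2.77 and 2.07 CPM. The ranges of DU145 and 22Rv1 overlapped with no other line, while those of C4-2 and C4-2B overlapped each other. The log2 fold change of DU145 over 22Rv1 was 2.19, and that of 22Rv1 over C4-2 was 2.19 (SE 0.22, adjusted p = 2.1e-07) and over C4-2B 2.20 (SE 0.22, adjusted p = 1.8e-07, edgeR quasi-likelihood test with Benjamini-Hochberg adjustment over all genes tested, as for all adjusted p below). C4-2B and C4-2 differed by a log2 fold change of -0.01 (SE 0.26) in PLAUR. In C4-2 and C4-2B PLAUR had at most 96 counts and was tested through DU145 and 22Rv1. The tests of PLAUR against C4-2 and C4-2B are therefore a description. SERPINB2, the inhibitor, was without a count in 33 of 36 libraries, and the highest value was 4.52 counts, in a 22Rv1 mono-culture.

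Among the MMPs, MMP14 had a pattern like that of PLAU. DU145 mono-cultures held 37.8, 38.8 and 40.1 CPM, 22Rv1 held 0.644, 0.877 and 1.38 CPM, and C4-2 and C4-2B held at most 0.464 CPM. The lowest DU145 mono-culture was 27.4 times the highest 22Rv1 mono-culture and 81.5 and 286 times the highest C4-2 and C4-2B mono-cultures. The 22Rv1 libraries lay above those of both BPCa lines, but 16.2 counts in the lowest 22Rv1 library and 15.6 counts in the highest C4-2 library lay close together. MMP1, the interstitial collagenase, was found at 0.628 to 1.01 CPM in DU145 mono-cultures and had at most 2.63 counts in any library of the other lines, with no count in all 9 C4-2 libraries. MMP9, a gelatinase, reached at most 1.63 CPM and 33.8 counts. DU145 held 0.662 to 0.991 CPM of MMP9 and 22Rv1 0.365 to 0.558 CPM in mono-culture, and the BPCa lines at most 0.0523 CPM. MMP1 was tested only where libraries with RANKL entered the fit, and MMP9 was not tested.

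The inhibitors TIMP1 and TIMP2 ranked the lines differently. TIMP1 was measured at 133, 123 and 126 CPM in DU145 and at 96.3, 95 and 93.7 CPM in 22Rv1 mono-cultures. No C4-2 or C4-2B library exceeded 0.412 CPM, in any culture. The ranges of DU145 and 22Rv1 did not overlap, and the log2 fold change between them was 0.44 (adjusted p = 0.0087, and 0.17 with counts scaled from TPM). The lowest 22Rv1 mono-culture was 523 times the highest C4-2 and 578 times the highest C4-2B mono-culture. TIMP2 was measured at 260, 274 and 273 CPM in DU145, at 11, 10.4 and 9.45 CPM in C4-2, at 9.0, 9.02 and 10.1 CPM in C4-2B, and at 1.11, 1.37 and 1.16 CPM in 22Rv1. Thus 22Rv1 held the least TIMP2 of the 4 lines and was below C4-2 by a log2 fold change of -3.11 (SE 0.12, adjusted p = 1.8e-12) and below C4-2B by -3.03 (SE 0.13, adjusted p = 2.3e-12). The log2 fold change of C4-2B over C4-2 was -0.09 (SE 0.09, adjusted p = 0.66). In 22Rv1 TIMP2 had at most 46.9 counts and was tested through the other lines, so its tests against 22Rv1 are a description.

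**Figure D1:**
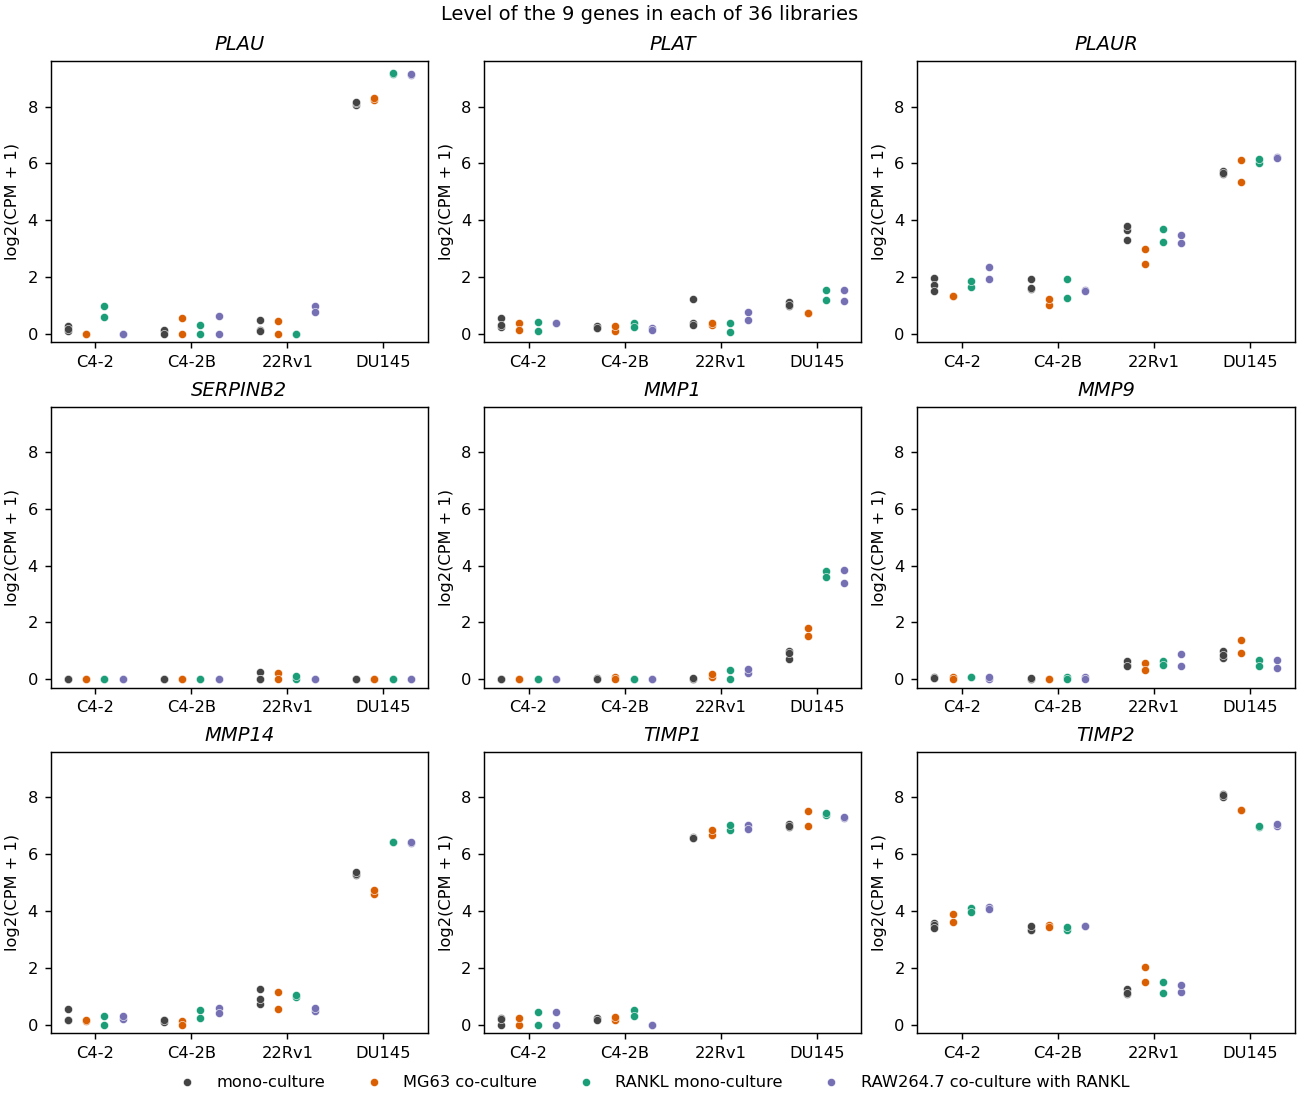
Level of each of the 9 genes, as log2(CPM + 1), in all 36 libraries. Each point is 1 library, placed by cell line and coloured by culture. PLAU and MMP14 are high in DU145 only, TIMP1 is high in DU145 and 22Rv1, and TIMP2 is highest in DU145 and lowest in 22Rv1.

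The minimum of 100 counts in a library was reached by 5 members (PLAU, PLAUR, MMP14, TIMP1 and TIMP2) among the 20 libraries without RANKL, and these were tested between lines in mono-culture. PLAU and MMP14 reached it in DU145 alone (at most 10.9 and 44.5 counts in the other lines), TIMP1 and PLAUR in DU145 and 22Rv1 (at most 5.68 and 96.0 counts in the BPCa lines), and TIMP2 in all lines but 22Rv1 (at most 46.9 counts there). Each was thus tested through the lines in which it was high, so the counts of called members in this paragraph are a description. All 5 were higher in DU145 than in 22Rv1, where 79.6% of all 13437 genes tested differed, and all 5 were higher in DU145 than in C4-2 and in C4-2B, where 78.3% and 79.0% of genes differed. Between 22Rv1 and C4-2, 3 members were higher (PLAUR, MMP14, TIMP1) and TIMP2 was lower in 22Rv1, against 72.0% of all genes that differed, and the same counts held against C4-2B, with 72.6% of genes. PLAU passed in neither of these, where it had at most 9.23 counts. With such shares of all genes called, the number of called members is near the background. Between C4-2B and C4-2, 0 of 5 members passed, also with DESeq2 and at an unadjusted p under 0.05, against 13.6% of all genes. With counts scaled from TPM, MMP14 no longer passed between 22Rv1 and C4-2 (log2 fold change 1.37, adjusted p = 0.23). All 5 members differed between the 2 LPCa lines, TIMP1 by the smallest log2 fold change, and line and phenotype cannot be told apart with 2 lines of each.

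Where these genes lie is taken from GENCODE 29 on GRCh38 by symbol, because the deposited table holds no coordinates and the submitters' processing notes name hg19. Of the 9 members 5 were in the RefSeq promoter table (PLAU, PLAUR, SERPINB2, MMP14 and TIMP1), and MMP1, MMP9, PLAT and TIMP2 were not. The DNA before the start sites is shown for PLAU, MMP14 and TIMP1, whose levels set DU145 apart from the BPCa lines. PLAUR also set DU145 apart, but its window began inside an annotated exon and left no bases to show. SERPINB2, with hardly a count, is not shown. The sequences are from RefSeq on GRCh38.p14, 5′ to 3′ on the plus strand, and end before the first annotated exon base. For PLAU (gene at chr10:73909177-73917497) the window chr10:73910882-73911103 precedes the RefSeq start next to which transcript PLAU-201 begins, 25 bases further on, and PLAU-201 took 91.9% to 92.4% of the PLAU counts in DU145 mono-cultures. For MMP14 (gene at chr14:22836557-22849027) the window is chr14:22836335-22836556, and for TIMP1 (gene at chrX:47582313-47586789) it is chrX:47582186-47582312. Capitals mark GC boxes (GGGCGG on either strand), the binding motif of Sp1-type factors.
PLAU: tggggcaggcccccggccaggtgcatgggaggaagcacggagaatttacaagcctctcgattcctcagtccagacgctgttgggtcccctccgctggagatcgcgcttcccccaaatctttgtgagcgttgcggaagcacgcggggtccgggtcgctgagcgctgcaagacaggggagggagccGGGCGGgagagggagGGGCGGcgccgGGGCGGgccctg
MMP14: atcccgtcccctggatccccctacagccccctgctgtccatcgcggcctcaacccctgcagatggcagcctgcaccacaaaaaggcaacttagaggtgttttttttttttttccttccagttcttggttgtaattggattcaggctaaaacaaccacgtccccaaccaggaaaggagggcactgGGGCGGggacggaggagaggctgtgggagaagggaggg
TIMP1: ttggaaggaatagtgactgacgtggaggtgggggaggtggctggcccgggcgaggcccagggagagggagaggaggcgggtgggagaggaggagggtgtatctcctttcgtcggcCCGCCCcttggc

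The PLAU window held 3 GC boxes, which began 66, 51 and 40 bases before the RefSeq start, the MMP14 window held 1, which began 66 bases before its start, and the TIMP1 window held 1, at 135 bases. Of the 35116 RefSeq promoters, 39.2% held a GC box in the same 222 positions and 21.8% in the 127 positions used for TIMP1, so the motif is common. None of the 3 windows held the AP-1 motif TGANTCA, read on both strands, which 6.02% of promoters held in 222 positions and 3.16% in 127. The SERPINB2 window, not shown, held 1 such motif, which began 102 bases before its start. In its 245 positions 6.51% of promoters held the motif. These matches describe the letters only.

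Comparing co-culture with MG63 cells against mono-culture asks how osteoblast-like cells alter the PCa cells. In DU145, MMP14 and TIMP2 were lower in co-culture, and PLAU, PLAUR and TIMP1 did not pass the test. MMP14 was measured at 23.5 and 25.4 CPM with MG63 cells and at 37.8 to 40.1 CPM in mono-culture, so that the groups did not overlap. Its log2 fold change was -0.60 (SE 0.22, adjusted p = 0.048). TIMP2 was measured at 187 and 186 CPM in co-culture and at 260 to 274 CPM in mono-culture, and its log2 fold change was -0.45 (SE 0.09, adjusted p = 0.0023). Thus 2 of 5 tested members passed in DU145, against 30.5% of all genes. Without the library that stood apart, 14.9% of all genes passed, TIMP2 had a log2 fold change of -0.45 with an adjusted p of 0.0014, whereas MMP14 had -0.65 with an adjusted p of 0.083. The TIMP2 call was lost when DU145 was fitted alone (log2 fold change -0.39, adjusted p = 0.18). The MMP14 call was lost under 11 of 13 alternatives, among them DESeq2 (adjusted p = 0.071), counts scaled from TPM (0.43) and leaving out any 1 library of the comparison (0.069 to 0.12). Its log2 fold change stayed negative under all 13.

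TIMP1 and PLAUR of DU145 depended on which MG63 library was used. TIMP1 was measured at 126 CPM in the first and 184 CPM in the second co-culture, against 123 to 133 CPM in mono-culture, and PLAUR at 40 and 68.0 CPM against 48.4 to 51.5 CPM. The first library lay inside or below the mono-culture range and the second above it for both genes. The 4 epithelial markers (KRT8, KRT18, EPCAM and CDH1) also lay apart, at sums of 868 and 1470 CPM in the MG63 libraries against 1050 to 1080 CPM in mono-culture, and their part in the result was not tested. The log2 fold change of TIMP1 was 0.35 (SE 0.16, adjusted p = 0.096, and 0.035 with DESeq2), with 0.06 without the second library and 0.59 (adjusted p = 1.1e-04) without the first. That of PLAUR was 0.18 (SE 0.20, adjusted p = 0.52), with -0.24 without the second library and 0.51 (adjusted p = 0.020) without the first. PLAU was measured at 296 and 318 CPM, just above the 264 to 286 CPM of mono-culture, with a log2 fold change of 0.23 (SE 0.18, adjusted p = 0.37) and of 0.18 (adjusted p = 0.38) without the second library. MMP1, too low for the test, was at 1.90 and 2.50 CPM against 0.628 to 1.01 CPM in mono-culture, with at most 34.5 counts in these libraries. Also too low for the test, PLAT was at 0.655 and 0.650 CPM against 0.965 to 1.16 CPM, below the mono-cultures, and MMP9 at 0.889 and 1.63 CPM against 0.662 to 0.991 CPM, overlapping them, while SERPINB2 had no count in any DU145 library. In the other 3 lines PLAT, MMP9 and SERPINB2 had at most 31.3, 13.4 and 4.52 counts in any library of any culture.

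In 22Rv1, PLAUR fell and TIMP2 rose with MG63 cells. PLAUR was measured at 4.48 and 6.95 CPM in co-culture and at 8.75 to 12.9 CPM in mono-culture, without overlap, and its log2 fold change was -0.86 (SE 0.26, adjusted p = 0.028). TIMP2 was measured at 3.10 and 1.85 CPM against 1.11 to 1.37 CPM, again without overlap, with a log2 fold change of 1.17 (SE 0.19, adjusted p = 4.9e-04). Both calls were lost without the first co-culture library, where PLAUR had a log2 fold change of -0.54 (adjusted p = 0.32) and TIMP2 of 0.73 (adjusted p = 0.17). The PLAUR call was also lost without the first (adjusted p = 0.064) or the second mono-culture (0.083). With counts scaled from TPM neither gene passed (0.062 and 0.068). The mesenchymal markers of 22Rv1 summed to 52.4 to 55.1 CPM with MG63 cells against 36.1 to 39.6 CPM, of which TWIST1 made up 40.6 to 43.7 CPM and 27.3 to 30.4 CPM. COL1A1, COL3A1, COL6A3 and RUNX2 were also higher with MG63 cells, without overlap. COL1A1 was at 3.78 to 4.61 CPM against 2.13 to 2.99 CPM. COL3A1 was at 0.715 to 0.875 CPM against 0.431 to 0.471 CPM. PDGFRB and IBSP were lower without overlap, and the ranges of LUM, DCN, COL1A2, POSTN, THY1 and FAP overlapped. COL1A2, THY1, PDGFRB, FAP and IBSP had at most 3 counts in both co-cultures. The 4 epithelial markers of 22Rv1 summed to 911 to 954 CPM with MG63 cells against 672 to 688 CPM, without overlap, and to 862 to 906 CPM with RANKL alone. The part of these markers in the result was not tested. TIMP1, at 101 and 115 CPM against 93.7 to 96.3 CPM, did not pass (log2 fold change 0.30, SE 0.16, adjusted p = 0.20). Thus 2 of 5 members passed in 22Rv1, against 20.4% of all genes. PLAU, MMP14 and TIMP2 had at most 10.9, 44.5 and 46.9 counts in any 22Rv1 library and were tested through other lines. This count is therefore a description, and the TIMP2 call rests on 21.7 to 46.9 counts in the co-cultures.

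In the BPCa lines PLAU, MMP14 and TIMP1 had at most 15.6 counts in any library and entered the fit through other lines, so that only PLAUR and TIMP2 could be followed there. TIMP2 of C4-2 was measured at 11.3 and 13.7 CPM with MG63 cells and at 9.45 to 11 CPM in mono-culture, and its log2 fold change was 0.40 (SE 0.11, adjusted p = 0.030). This was the only member that passed in C4-2, where 10.1% of all genes passed, and its call was lost under 8 of 13 alternatives, among them leaving out the second co-culture (log2 fold change 0.24, adjusted p = 0.41), the second (adjusted p = 0.067) or the third mono-culture (0.11). In C4-2B 0 of 5 members passed, with DESeq2 also 0, and 1 (PLAUR) had an unadjusted p under 0.05, while 7.41% of all genes passed. PLAUR of C4-2B was measured at 1.03 and 1.31 CPM against 1.95 to 2.77 CPM (log2 fold change -0.89, SE 0.41, adjusted p = 0.22), and PLAUR of C4-2 at 1.49 and 1.52 CPM against 1.87 to 2.86 CPM (log2 fold change -0.54, SE 0.37, adjusted p = 0.43). The groups did not overlap in either line, but these values rest on at most 96.0 counts. PLAU, MMP14 and TIMP1 stayed at or below 0.481 CPM in all MG63 co-cultures of C4-2 and C4-2B.

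Whether the effect of MG63 cells differed between the 4 lines was tested by the interaction of line and culture. TIMP2 passed (adjusted p = 3.3e-04), with log2 fold changes of -0.45 in DU145, 1.17 in 22Rv1, 0.40 in C4-2 and 0.17 in C4-2B. PLAUR (adjusted p = 0.092), PLAU (0.31), MMP14 (0.83) and TIMP1 (0.99) did not pass. Thus 1 of 5 members passed, against 14.5% of all genes. DESeq2 called PLAUR as well (adjusted p = 0.045). The mean effect in the LPCa lines less that in the BPCa lines was passed by 0 of 5 members, also with DESeq2 and at an unadjusted p under 0.05, against 9.85% of all genes. For TIMP2 this difference was 0.07 (SE 0.13), since DU145 and 22Rv1 moved in opposite directions. PLAU, MMP14 and TIMP1 had at most 15.6 counts in any BPCa library, and the SE of their difference was 1.76, 0.94 and 0.79. Only PLAUR and TIMP2 could thus be followed in both phenotypes, and neither count of passing members is read as a result.

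**Figure D2:**
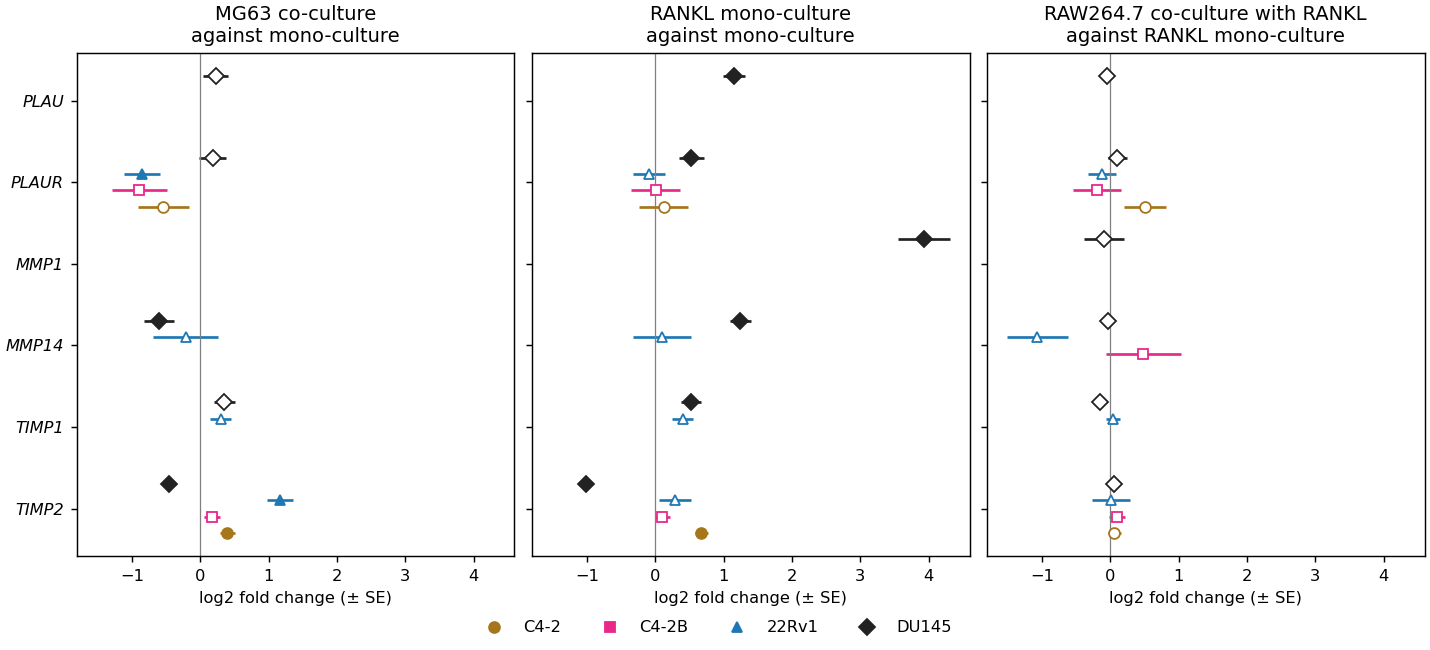
Log2 fold change with an approximate standard error, derived from the test statistic, for the members tested in MG63 co-culture, RANKL mono-culture and RAW264.7 co-culture, by cell line. Filled symbols passed an adjusted p of 0.05, and the 26 of 68 values with a standard error above 0.6 or no counts, among them the called PLAU value of C4-2 with RANKL, are left out. TIMP2 with MG63 cells lies below 0 in DU145 and above 0 in the other lines, and with RANKL 5 members of DU145 lie above 0 and TIMP2 below 0.

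RANKL given alone, the control of the RAW264.7 co-cultures, was compared with mono-culture without RANKL. Of the 8 calls among the members, 6 were found in DU145, that of MMP1 among them, and 2 in C4-2. PLAU and MMP14 reached 100 counts in DU145 alone, with at most 10.9 and 44.5 counts in the other lines. The split of calls by line is therefore a description. PLAU was measured at 566 and 575 CPM with RANKL and at 264 to 286 CPM without, and its log2 fold change was 1.15 (SE 0.16, adjusted p = 8.4e-06). MMP14 was measured at 85.7 and 85.1 CPM against 37.8 to 40.1 CPM, and its log2 fold change was 1.24 (SE 0.15, adjusted p = 7.3e-07). MMP1 was measured at 13.1 and 11 CPM against 0.628 to 1.01 CPM, and its log2 fold change was 3.93 (SE 0.38, adjusted p = 3.2e-07). MMP1 reached the 100 counts needed for the test only in DU145 libraries with RANKL, at 136 to 172 counts with at most 34.5 elsewhere, so it had to differ to be tested and its value is a description. For these 3 proteases the groups were separated by a gap far larger than their spread. Of the activators and proteases too low for the test, MMP9 was at 0.578 and 0.363 CPM against 0.662 to 0.991 CPM, so that it lay lower with RANKL, and PLAT at 1.90 and 1.3 CPM against 0.965 to 1.16 CPM, so that it lay higher, on at most 34.6 counts.

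The receptor and the inhibitors of DU145 also differed. PLAUR was measured at 64.0 and 69.9 CPM against 48.4 to 51.5 CPM (log2 fold change 0.53, SE 0.18, adjusted p = 0.027), and TIMP1 at 165 and 176 CPM against 123 to 133 CPM (log2 fold change 0.53, SE 0.15, adjusted p = 0.0085). TIMP2 went the other way, at 123 and 125 CPM against 260 to 274 CPM (log2 fold change -1.02, SE 0.08, adjusted p = 1.2e-09). Thus the 5 members tested other than MMP1 passed in DU145, 4 higher and TIMP2 lower, against 32.5% of all 13454 genes. DESeq2 called MMP1, MMP14, TIMP1 and TIMP2, without PLAU (adjusted p = 0.11) and PLAUR (0.054), and with counts scaled from TPM the calls of MMP14 (0.23), PLAUR (0.21) and TIMP1 (0.23) were lost. The PLAUR call was also lost without the first (adjusted p = 0.082) or second RANKL library (0.16) and without the second (0.069) or the third mono-culture (0.067), and that of TIMP1 without the second RANKL library (0.073). The epithelial markers of DU145 moved in the same comparison, from a sum of 1050 to 1080 CPM to 1780 to 1790 CPM for the 4 genes, and their part in the result was not tested.

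In the other lines MMP1 had at most 2.63 counts and was tested only because of DU145, so it is left out of the counts that follow. TIMP2 of C4-2 was measured at 16.1 and 14.7 CPM against 9.45 to 11 CPM, and its log2 fold change was 0.67 (SE 0.10, adjusted p = 3.6e-05). PLAU of C4-2 also passed (adjusted p = 0.041), on at most 10.6 counts per library, at 0.491 and 0.973 CPM against 0.079 to 0.204 CPM, and its call was lost without either RANKL library (adjusted p = 0.078 and 0.33) or without the second (0.095) or the third mono-culture (0.080). These were 2 of the 5 members other than MMP1, against 18.3% of all genes, and none of these counts is read as a result about the members. In C4-2B 0 of 5 members passed, at an unadjusted p under 0.05 as well, with DESeq2 also 0, against 14.4% of all genes. TIMP2 of C4-2B was at 9.10 and 9.88 CPM against 9.0 to 10.1 CPM (log2 fold change 0.10, SE 0.11), and PLAUR at 2.77 and 1.41 CPM against 1.95 to 2.77 CPM, while PLAU, MMP1, MMP14 and TIMP1 had at most 5.80 counts in the RANKL libraries of C4-2B. In 22Rv1 0 of 5 passed, 1 had an unadjusted p under 0.05 (TIMP1) and DESeq2 called 1 (TIMP1, adjusted p = 0.011), against 17.7% of all genes. TIMP1 of 22Rv1 was at 114 and 131 CPM against 93.7 to 96.3 CPM (log2 fold change 0.40, SE 0.15, adjusted p = 0.073).

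The effect of RANKL differed between lines for TIMP2 (adjusted p = 3.1e-09), a test chosen after the data were seen. MMP14 had an adjusted p of 0.052, and 1 of the 5 members other than MMP1 passed, against 32.6% of all genes. DESeq2 called 3 members (TIMP2, MMP14 with an adjusted p of 0.0026, and PLAU with 0.020).

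**Figure D3:**
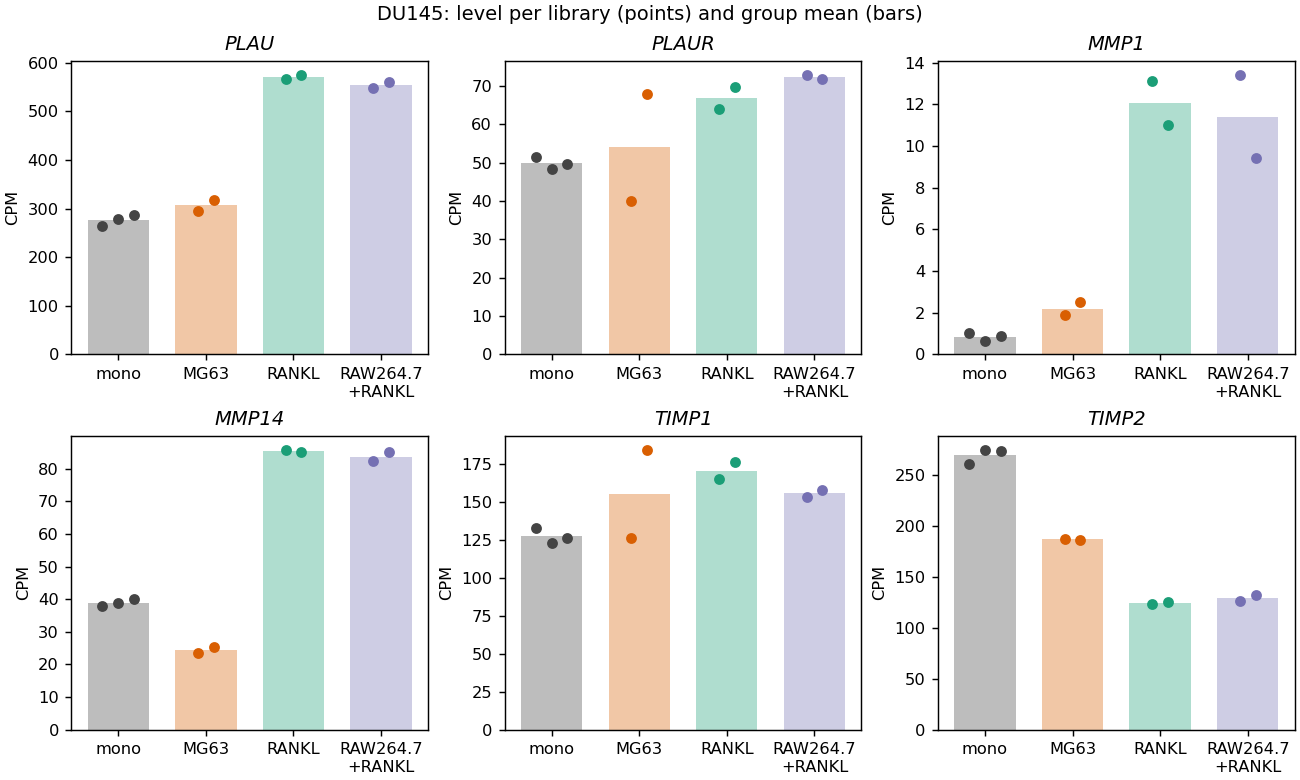
Level in CPM of the 6 members tested in DU145, by culture. Points are libraries and bars are group means. PLAU, MMP1 and MMP14 are higher and TIMP2 is lower in both cultures with RANKL than in both cultures without it, and the MG63 libraries of PLAUR and TIMP1 lie apart from each other.

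Co-culture with RAW264.7 cells asks what osteoclast precursors add to RANKL. In DU145 the levels of the members stayed close to those with RANKL alone. PLAU was at 548 and 560 CPM, MMP14 at 82.3 and 85.1 CPM, MMP1 at 13.4 and 9.40 CPM, PLAUR at 72.9 and 71.9 CPM, TIMP1 at 153 and 158 CPM, and TIMP2 at 126 and 132 CPM. The log2 fold changes were -0.06 (SE 0.09) for PLAU, -0.04 (SE 0.10) for MMP14, -0.09 (SE 0.29) for MMP1, 0.10 (SE 0.14) for PLAUR, -0.15 (SE 0.10) for TIMP1 and 0.05 (SE 0.07) for TIMP2. For the genes other than MMP1 the log2 fold change, widened by 2 SE on either side, stayed short of the size found with RANKL alone. The SE is derived from the test statistic, so this width is approximate.

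Over the 4 lines, 0 of the 20 tests of members other than MMP1 against RAW264.7 cells passed, 4 had an unadjusted p under 0.05, and DESeq2 called 0 with 3 at an unadjusted p under 0.05. Very few genes passed at all: 0.0174% of 11525 in C4-2, 0.139% in C4-2B, 0.0260% in DU145 and 0.00868% in 22Rv1. The 4 values with a low unadjusted p were at or near the detection limit. PLAU of C4-2 was listed at 0 in both RAW264.7 libraries and at 0.491 and 0.973 CPM with RANKL alone, and PLAU of 22Rv1 was at 0.962 and 0.698 CPM against 0 in both RANKL libraries. TIMP1 of C4-2B was at 0 in both RAW264.7 libraries against 0.412 and 0.224 CPM, and MMP14 of 22Rv1 was at 0.403 and 0.515 CPM against 0.947 and 1.08 CPM. No member passed the test for a difference of the RAW264.7 effect between lines, where 0.0347% of all genes passed, 1 (PLAU) had an unadjusted p under 0.05, and DESeq2 called PLAU (adjusted p = 1.1e-07) on these low counts.

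TIMP2 of C4-2, which was higher with RANKL, held its level with RAW264.7 cells at 16.5 and 15.6 CPM (log2 fold change 0.06, SE 0.10). TIMP2 of C4-2B was at 10.0 and 10.1 CPM, and of 22Rv1 at 1.21 and 1.62 CPM, both inside or next to their ranges in the 2 kinds of mono-culture. TIMP1 of 22Rv1 was at 128 and 118 CPM, and PLAUR of 22Rv1 at 8.26 and 10.1 CPM. For these 3 genes of 22Rv1 the values with RAW264.7 cells overlapped those with RANKL alone.

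The choice of control changed the MG63 results of DU145. Because the MG63 co-cultures had the depth of the RANKL mono-cultures, they were also compared with these, although the 2 then differ in RANKL. Against that control MMP14 was again lower with MG63 cells (log2 fold change -1.80, SE 0.18, adjusted p = 5.3e-08) and PLAU was lower (log2 fold change -0.88, adjusted p = 6.8e-04). MMP1 had a log2 fold change of -2.46 (SE 0.43, adjusted p = 2.9e-04), which is a description, since the control group is the one that let MMP1 into the test and the MG63 libraries held 24.4 and 26.1 counts. TIMP2 was higher (log2 fold change 0.60, SE 0.09, adjusted p = 1.4e-05), the opposite of its direction against mono-culture without RANKL. Without the library that stood apart these log2 fold changes were -1.88 for MMP14, -0.96 for PLAU, -2.71 for MMP1 and 0.58 for TIMP2, with adjusted p from 1.5e-07 to 0.0017, and PLAUR (-0.76, adjusted p = 0.0064) and TIMP1 (-0.45, adjusted p = 0.010) passed as lower as well. MMP14 was thus lower with MG63 cells than in either kind of mono-culture, and TIMP2 lay between them. In DU145 36.5% of all genes passed this comparison, and 23% without that library. In 22Rv1 TIMP2 was still higher (log2 fold change 0.87, adjusted p = 0.029) and PLAUR did not pass (-0.77, adjusted p = 0.081), against 15.3% of all genes. In C4-2 TIMP2 did not pass (-0.28, adjusted p = 0.14) and PLAU passed (adjusted p = 0.030) with no count in either MG63 library, against 10.3% of all genes. In C4-2B 0 of the 5 members other than MMP1 passed, against 7.63% of all genes.

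The balance of protease and inhibitor within a library was described by ratios of TPM, which scale counts by transcript length and so allow genes to be compared. The ratio of TIMP2 to MMP14 in DU145 was 4.47 to 5.13 in mono-culture, 6.29 and 7.55 with MG63 cells, 0.962 and 1.13 with RANKL, and 1.23 and 1.26 with RAW264.7 cells. Cultures with RANKL lay below the mono-cultures, with no overlap. These ratios rest on how counts were split among transcripts, and the height of the MG63 co-cultures over the mono-cultures depended on it, since the same ratio taken from CPM was 7.96 and 7.32 with MG63 cells against 6.81 to 7.06. From CPM it was 1.44 to 1.55 in the cultures with RANKL. The ratio of TIMP1 to TIMP2 was 1.72 to 1.95 in DU145 mono-cultures, 5.50 and 5.59 with RANKL, 4.69 and 4.84 with RAW264.7 cells, and 2.67 and 4.83 with MG63 cells. In 22Rv1 mono-cultures it was 253 to 312, so TIMP1 transcripts far outnumbered those of TIMP2 there. The ratio of PLAU to PLAUR in DU145 was 2.81 to 3.08 in mono-culture, 4.37 and 5.06 with RANKL, and 2.43 and 4.17 with MG63 cells. The MG63 libraries fell on either side of mono-culture in this last ratio.

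**Figure D4:**
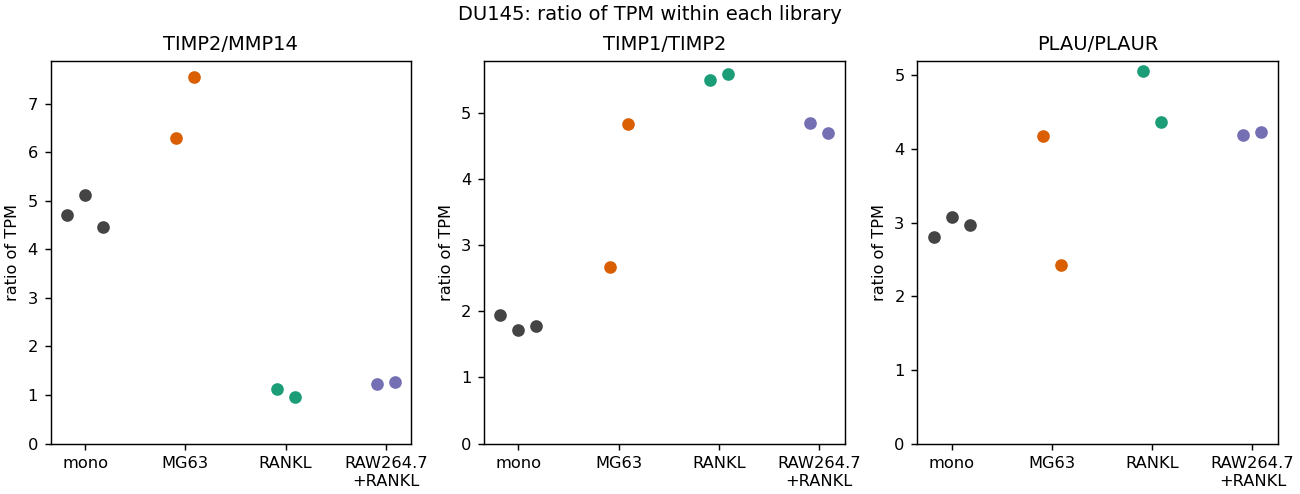
Ratios of TPM within each DU145 library for TIMP2 over MMP14, TIMP1 over TIMP2 and PLAU over PLAUR, by culture, with 1 point per library. TIMP2 over MMP14 is near 1 in the 4 libraries with RANKL, against 4.47 to 5.13 in mono-culture.

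The estimated counts assign reads to transcripts, and this split was not stable for the TIMP genes. TIMP2-201 begins at the 5′ end of TIMP2 (gene at chr17:78852977-78925387, minus strand), and TIMP2-203 begins 51237 bases further downstream, inside the gene. TIMP2-203 held 192 to 195 CPM in DU145 mono-cultures, 60.2 CPM and practically none in the MG63 libraries, 17.3 and 39.2 CPM with RANKL, and 59.6 and 53.9 CPM with RAW264.7 cells. TIMP2-201 held 63.0 to 75.4 CPM in mono-culture, 124 and 184 CPM with MG63 cells, 101 and 82.9 CPM with RANKL, and 62.4 and 76.7 CPM with RAW264.7 cells. The lower TIMP2 level of DU145 in all 3 other cultures was thus found in TIMP2-203, while TIMP2-201 was as high as in mono-culture or higher, apart from the 62.4 CPM of 1 RAW264.7 library, next to the lowest mono-culture. The share of TIMP2-203 was 70.2% to 75.0% in mono-culture and at most 47.3% in the other DU145 libraries, which were also the shallower ones, and depth and culture cannot be told apart here. In TIMP1, TIMP1-202 held 88.3 CPM, or 47.9% of the gene, in the second MG63 library of DU145 and at most 6.98 CPM in the other 8 DU145 libraries.

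**Figure D5:**
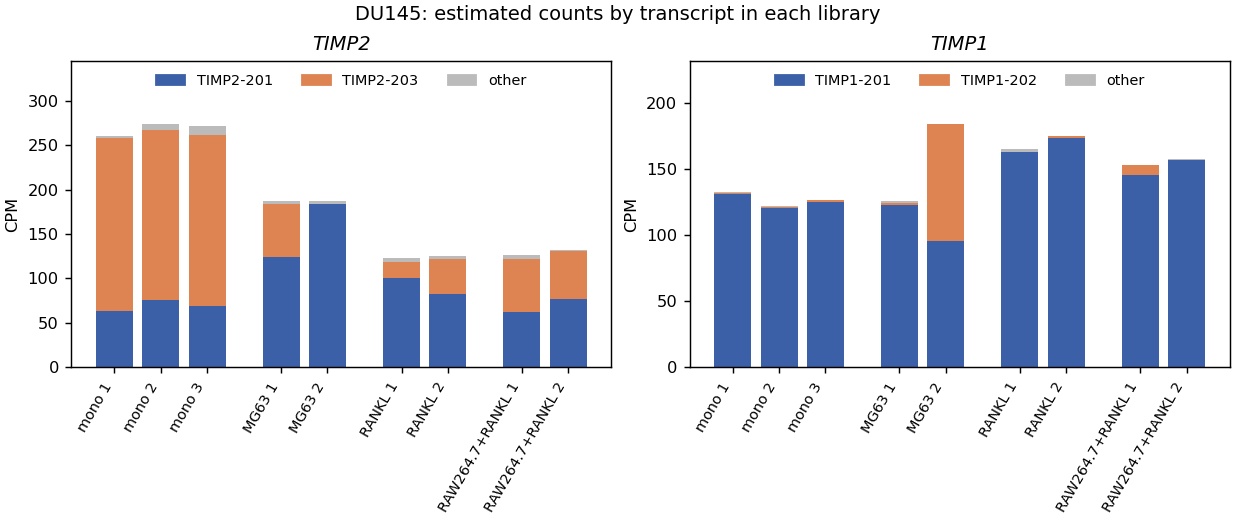
Estimated counts of TIMP2 and TIMP1 in each DU145 library, in CPM, split by transcript. TIMP2-203 makes up most of TIMP2 in the 3 mono-cultures only, and TIMP1-202 is large in the second MG63 library only.

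Other genes of the same systems were followed as lists. Their counts stand beside the shares of all genes that passed, which were 10.1% in C4-2, 7.41% in C4-2B, 20.4% in 22Rv1 and 30.5% in DU145 with MG63 cells and 18.3%, 14.4%, 17.7% and 32.5% with RANKL, and no count is read as particular to a list. Of the 12 calls of list genes in DU145 with MG63 cells, 6 were lost and 2 others (ANXA2 and SPINT2, both lower) appeared without the library that stood apart. Of 20 other genes of the plasminogen system, 13 were tested. With MG63 cells 3 were higher in C4-2 (ANXA2, S100A10 and SERPINE2), 1 in C4-2B (ANXA2) and 1 in 22Rv1 (F12), with none lower, and 2 were higher (F12 and SERPINB6) and 3 lower (PLGRKT, S100A10 and TFPI) in DU145. The count of 1 of 13 in C4-2B and in 22Rv1 lies near or below the shares of 7.41% and 20.4% of all genes. SERPINE2, an inhibitor of urokinase and thrombin, was at 7.49 to 12.1 CPM in C4-2 with MG63 cells against 3.11 to 4.06 CPM (log2 fold change 1.56, SE 0.19, adjusted p = 5.9e-05). ANXA2, which binds plasminogen and tissue plasminogen activator at the cell surface, was at 1.63 to 2.50 CPM against 0.834 to 0.974 CPM in C4-2 (log2 fold change 1.26, SE 0.19, adjusted p = 4.8e-04). F12, coagulation factor XII, was at 8.21 to 15.3 CPM in DU145 with MG63 cells against 5.38 to 6.61 CPM (log2 fold change 1.04, SE 0.19, adjusted p = 0.0012), and did not pass without the second library (log2 fold change 0.56, adjusted p = 0.079). Nor did PLGRKT (adjusted p = 0.18), S100A10 (0.069) and SERPINB6 (0.83) of DU145, while TFPI did (0.0098). The ANXA2 call of C4-2 was lost without the first co-culture (adjusted p = 0.095). With RANKL 4 of 13 were higher in C4-2 (18.3% of all genes passed there), 4 in C4-2B (14.4%), 3 in 22Rv1 (17.7%) and 5 in DU145 (32.5%), where 1 (TFPI) was lower. ANXA2, S100A10 and F3 were higher in all 4 lines, SERPINE2 in all but 22Rv1, and F12 in DU145. With RAW264.7 cells 0 of 12 passed in any line.

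Of 20 other MMPs, 6 were tested. With MG63 cells 3 were higher in 22Rv1 (MMP15, MMP17 and MMP24), 1 was lower in C4-2 (MMP16), 2 were lower in DU145 (MMP16 and MMP24) and none passed in C4-2B. The 2 of 6 in DU145 are near the share of 30.5% of all genes. MMP17, a membrane-anchored MMP, was at 5.88 to 6.04 CPM in 22Rv1 co-cultures against 2.72 to 3.46 CPM (log2 fold change 1.04, SE 0.24, adjusted p = 0.0062), and MMP24, another of this kind, at 18 to 18.1 CPM against 13.1 to 13.6 CPM (log2 fold change 0.55, SE 0.08, adjusted p = 3.0e-04). MMP16 of DU145 passed as lower (adjusted p = 0.021) with at most 13.5 counts, and did not pass without either co-culture (0.069 and 0.11) or the third mono-culture (0.092), whereas MMP24 of DU145 passed without the second co-culture (6.6e-04). The MMP17 call was lost without the second co-culture of 22Rv1 (adjusted p = 0.062). With RANKL, MMP17 was higher and MMP15, MMP16 and MMP24 were lower in DU145, MMP15 and MMP24 were higher in 22Rv1, MMP24 was higher and MMP16 lower in C4-2, and MMP15 and MMP16 were higher and MMP25 lower in C4-2B. Of 5 other MMP inhibitors and partners, 3 were tested. BSG, also called EMMPRIN, an inducer of MMPs, was higher with MG63 cells in C4-2, 22Rv1 and DU145 and with RANKL in all 4 lines, and its DU145 call with MG63 cells was lost without the second library (log2 fold change 0.15, adjusted p = 0.065). In 22Rv1 BSG was at 540 to 586 CPM against 446 to 452 CPM (log2 fold change 0.44, SE 0.08, adjusted p = 0.0012). RECK, a membrane-anchored MMP inhibitor, was lower in C4-2B, at 2.14 to 2.89 CPM against 4.56 to 4.80 CPM (log2 fold change -0.83, SE 0.17, adjusted p = 0.0074), a call lost without the first co-culture (adjusted p = 0.15).

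Of 14 ADAM and ADAMTS proteases, 10 were tested. With MG63 cells ADAMTS1, a secreted protease that cleaves proteoglycans, was higher in DU145, at 0.859 to 1.41 CPM against 0.300 to 0.422 CPM (log2 fold change 1.71, SE 0.23, adjusted p = 4.5e-04), on at most 18.2 counts, and lower in 22Rv1. In DU145 it had 1.99 (adjusted p = 7.9e-04) without the second co-culture and 1.28 (adjusted p = 0.051) without the first. ADAM9, a membrane protease, was lower in DU145, at 283 to 355 CPM against 444 to 462 CPM (log2 fold change -0.43, SE 0.07, adjusted p = 7.8e-04), and also without the second co-culture (log2 fold change -0.27, adjusted p = 2.0e-04). None of the 10 passed in C4-2 or C4-2B with MG63 cells. With RANKL ADAM8 was higher and ADAM12 and ADAM17 were lower in DU145, ADAMTS1 was higher and ADAM8 and ADAM28 lower in C4-2, and ADAM8, ADAM9 and ADAMTS1 were lower in C4-2B.

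Of 9 membrane serine proteases and inhibitors, 8 were tested. ST14, or matriptase, which can activate pro-urokinase, was lower in DU145 with MG63 cells, at 1.13 to 1.71 CPM against 2.19 to 3.24 CPM (log2 fold change -0.76, SE 0.20, adjusted p = 0.012). SPINT1, its inhibitor, was lower too, at 4.43 to 8.95 CPM against 10.0 to 13.8 CPM (log2 fold change -0.77, SE 0.22, adjusted p = 0.016). Without the second co-culture ST14 had -1.04 (adjusted p = 0.025) and SPINT1 -1.32 (adjusted p = 0.0081), whereas without the first neither passed (-0.49 and -0.33, adjusted p = 0.21 and 0.33), nor did they without the third mono-culture (adjusted p = 0.11 and 0.055). Both were higher with RANKL in DU145, at 9.96 to 10.7 CPM for ST14 and 32.3 to 36.3 CPM for SPINT1, as was PRSS22. With RANKL PRSS8, SERPINB5, SPINT1 and ST14 were higher in C4-2, ST14 was higher in 22Rv1, and HPN and TMPRSS2 were lower in C4-2B. ST14 was higher with MG63 cells in 22Rv1, as was TMPRSS2, which was lower in C4-2 and C4-2B. SERPINB5, or maspin, was higher in C4-2, at 1.18 to 1.55 CPM against 0.584 to 0.690 CPM (log2 fold change 1.17, SE 0.27, adjusted p = 0.011), a call lost without the first co-culture (adjusted p = 0.17). With RAW264.7 cells 0 genes of these 4 further lists passed in any line.

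The genes most like each member across cultures were found by Pearson's r of log2(CPM + 1) over the 16 group means after the mean of each line was subtracted, among 13445 genes. These values are a description, since the points share lines and depth and DU145 gives most of the variation. MMP14 was most like PNP (r = 0.959), CPVL (0.956) and DOCK10 (0.953). MMP1 was most like FGF11 (r = 0.986), IMPDH1 (0.978) and PLEKHG4B (0.973), and PLAU was most like COL13A1 (r = 0.889), ANXA3 (0.855) and SKAP1 (0.845). PLAUR was most like POLE3 (r = 0.912), ARHGEF26 (0.895) and VWA2 (0.871). TIMP1 was most like TECPR2 (r = 0.854), APOE (0.843) and POR (0.815), and TIMP2 was most like SEMA3F (r = 0.932), TKT (0.932) and FAM234A (0.905). Among the 6 members that passed the filter MMP1 and MMP14 were the most alike (r = 0.790), and MMP1 and TIMP2 the most opposed (r = -0.775).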

How the data were processed

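The authors quantified reads of poly(A) RNA libraries with kallisto, per the labels, and deposited estimated counts by transcript and library, not normalized across samples. Their notes name hg19, and their methods name a later step to scaled TPM that is not in the deposited values. All 36 columns were mapped to samples by their labels. Counts were summed by gene symbol, each of 159837 transcripts once. Transcripts without a symbol held 0.526% to 0.764% of a library's counts and entered the totals only. CPM is per 1000000 total counts. TPM used GENCODE 29 lengths, known for 95.4% of transcripts.

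Rounded counts were tested with edgeR 4.0.16 (TMM, quasi-likelihood) in R 4.3.3, keeping genes that reached 100 counts in some library of the fit. Libraries without RANKL (20) were fitted for MG63 cells and line pairs, all 36 for RANKL, and the 16 with RANKL for RAW264.7 cells. A call is a Benjamini-Hochberg adjusted p under 0.05 over all genes tested. Each SE is approximate: the absolute log2 fold change over the square root of the F statistic of its test. DESeq2 1.42.0, other scalings and filters, a replicate block, other controls and leaving out each library were alternatives. Leaving out libraries for list genes, and the second DU145 MG63 library with RANKL mono-cultures as control, were chosen after the data were seen. The procedure was tested on simulated data. Members below the filter are given by their levels alone. Of each list, up to 3 genes with the largest change among those called with MG63 or RAW264.7 cells are described with values, and others only by counts or by name. The members and lists were chosen with earlier results of these data known. Tables and figures were made with Python 3.11.15, pandas 2.3.3 and matplotlib 3.10.9.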

Additional observations from a re-analysis of the deposited data

Results flagged for a closer look

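TIMP2 stood out in the test of whether the effect of MG63 cells differed between the 4 lines (adjusted p = 3.3e-04, edgeR quasi-likelihood test), with a log2 fold change below 0 in DU145 and above 0 in the 3 other lines. It stood out again in the test of whether the effect of RANKL differed between lines (adjusted p = 3.1e-09), with -1.02 in DU145 and 0.67 in C4-2. Both tests use the same mono-cultures as control, and each passed under every alternative run. No group held 4 or more libraries, so single libraries were not screened for outlying values of a member.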

How the results depend on the processing

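Of 1851 values of single members under the alternatives, 1782 stayed on their side of the threshold, 46 lost a call, 19 gained one and 4 changed sign with a call in the reported or the other fit. Among the 1782, 75 changed sign, all of them values that passed in neither fit. The 5 calls with MG63 cells (edgeR quasi-likelihood test) became 3 with each line fitted alone, 3 without a filter on low counts, 1 with counts scaled from TPM, and 1 where a change above 2-fold and an unadjusted p under 0.05 made a call, and 3 to 7 when 1 library was left out. The 8 calls with RANKL include MMP1 of DU145, whose value is a description. They became 4 with counts scaled from TPM, where MMP1 was too low to be tested, and 6 to 8 when 1 library was left out. The absence of calls with RAW264.7 cells became 4 calls under the rule of 2-fold and unadjusted p, and stayed at 0 in every leave-one-out fit, as did the difference between LPCa and BPCa. The 23 calls between lines stayed at 23 in every leave-one-out fit and were 21 with counts scaled from TPM, where MMP14 between 22Rv1 and C4-2 and TIMP1 between DU145 and 22Rv1 no longer passed. DESeq2 called 2 members in place of 1 for a difference of the MG63 effect between lines, 3 in place of 1 for that of RANKL and 1 in place of 0 for that of RAW264.7 cells. Leaving out 1 library gave 1 to 2 for MG63 cells, with 2 without the first DU145 co-culture, and 1 to 2 for RANKL. With RANKL mono-cultures as control of the MG63 cells, log2 fold changes reversed to -0.28 for TIMP2 in C4-2, to -0.88 for PLAU in DU145 and to 0.60 for TIMP2 in DU145. Between 22Rv1 and C4-2, the fitted PLAU value was -6.22 in RANKL mono-cultures, which depends on the prior count of the fit and is no bound, since 22Rv1 had no PLAU count there and C4-2 at most 10.6. The cause of these changes was not tested.

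With the replicate number as a block, 3 in place of 5 members were called with MG63 cells, and 6 in place of 8 with RANKL, without PLAU of C4-2 (adjusted p = 0.057) and PLAUR of DU145 (0.068). MMP1 of DU145, a description, is among both counts with RANKL. Deviations of same-numbered libraries had a mean correlation of -0.03 between mono-culture and MG63 co-culture and 0.02 between RANKL alone and RAW264.7 co-culture, so the numbers were not taken to pair the libraries. Depth limits PLAT, MMP9 and SERPINB2 in all lines, MMP1 outside DU145, and PLAU, MMP14 and TIMP1 in the BPCa lines, where few counts stand behind each value.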
